A study of Mus musculus with 4 samples.

Results

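Antioxidant enzymes remove the superoxide and peroxides that arise as a by-product of respiration. Superoxide dismutases turn superoxide into hydrogen peroxide, and catalase, glutathione peroxidases and peroxiredoxins reduce the peroxide to water. Muscle fibres are rich in mitochondria, and many of these enzymes exist in one form for the mitochondrial matrix and another for the cytosol, all of them encoded by nuclear genes, translated outside the mitochondrion and, for the matrix forms, imported as proteins. The transcripts of 10 such enzymes were examined: Sod1, Sod2, Cat, Gpx1, Gpx3, Gpx4, Prdx1, Prdx3, Prdx5 and Txn2. They were chosen by gene name from the deposited table, and all 10 were found among its 16472 genes. They were sorted by where the protein is known to work, as background and not as a measurement. Sod2, Prdx3 and Txn2 are proteins of the mitochondrial matrix. Sod1, which also has a pool between the mitochondrial membranes, and Prdx1 are mainly cytosolic. Gpx1, Gpx4 and Prdx5 occur in several compartments, Cat lies in peroxisomes and Gpx3 is secreted.

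RNA was sequenced in 4 libraries of skeletal muscle from wild-type (WT) mice, 2 of isolated mitochondria and 2 of what the treatment label calls tissue minus mitochondria. The titles of the second group name total muscle, and lysate of total muscle is also what a figure legend names, so that only the treatment label points to depleted tissue. The group is called remaining tissue after that label, which does not settle whether the tissue was whole or depleted. The labels name no other treatment, and give neither age, sex nor muscle, nor whether libraries came from separate animals, so p-values measure only the spread between these libraries. According to the methods, which describe the fractionation for the heart, isolated mitochondria were treated with digitonin and RNase A before extraction, and the fragmentation time was set separately for mitochondrial RNA. Any effect of either step cannot be told apart from the difference between the fractions.

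The matrix enzymes carry their import signal at the start of the protein, so the first 60 coding bases were examined. The mitochondrial and cytosolic forms were not compared along the rest of their length. These first bases are shown for Sod2 and for 2 of the pairs whose ratio is reported below. They come from GENCODE M21 transcripts on GRCm38, with the start codon in capitals. The stretch of Txn2 lies at chr15:77927895-77927954 on the minus strand, within 1 exon. The stretch of Prdx1 lies at chr4:116687418-116687477 on the plus strand, also within 1 exon, and those of Sod2, Prdx3 and Txn1 cross an intron. The matrix form comes first in each pair.
Sod2: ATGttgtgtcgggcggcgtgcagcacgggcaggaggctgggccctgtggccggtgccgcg
Prdx3: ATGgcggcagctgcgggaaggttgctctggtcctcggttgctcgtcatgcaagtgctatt
Prdx1: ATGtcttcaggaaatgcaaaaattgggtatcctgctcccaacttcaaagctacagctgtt
Txn2: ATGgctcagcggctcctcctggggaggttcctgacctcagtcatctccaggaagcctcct
Txn1: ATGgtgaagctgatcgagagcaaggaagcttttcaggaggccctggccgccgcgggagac

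Signals for import into the matrix are known to be rich in basic residues and poor in acidic ones. In codons 2 to 31, Sod2 held 5 codons for arginine or lysine and 1 for aspartate or glutamate. Prdx3 held 4 basic codons and 0 acidic ones, against 3 and 2 in Prdx1. Txn2 held 5 basic and 0 acidic codons, while Txn1, the cytosolic thioredoxin, held 3 and 5. The secreted Gpx3 held 5 and 2, the peroxisomal Cat 5 and 5, and Prdx5, found in several compartments, 6 and 1. Basic codons alone thus did not set the matrix enzymes apart. The 3 glutathione peroxidases share another feature that is legible in the transcript, a TGA codon that is read as selenocysteine, the residue at the active site. It was codon 47 of Gpx1 and codon 73 of both Gpx3 and Gpx4. The 57 coding bases around it are shown with this codon in capitals. That of Gpx1 lies at chr9:108339424-108339480 and that of Gpx4 at chr10:80054710-80054766, both on the plus strand, and that of Gpx3 crosses an intron.
Gpx1: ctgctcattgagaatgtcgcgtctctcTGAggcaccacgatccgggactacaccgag
Gpx3: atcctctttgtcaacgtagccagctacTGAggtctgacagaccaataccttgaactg
Gpx4: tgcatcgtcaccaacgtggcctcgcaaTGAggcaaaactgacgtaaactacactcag

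The deposited values are normalized counts, that is, reads per gene divided by a size factor of the library and rounded. In isolated mitochondria 94.1 to 95.3% of the reads came from the mitochondrial genome, against 20.5 to 22.3% in remaining tissue. Nuclear genes were counted with 17 nuclear copies of mitochondrial genes also left out. They then held 100924 reads in replicate 1 and 181152 in replicate 2 of isolated mitochondria, beside an estimated 11988421 and 11967458 in remaining tissue. A median of 5 and 10 reads per tested gene remained in the mitochondrial libraries. The enzymes had between 3 and 135 reads each there, which sets the precision of what follows. Replicates correlated across genes with a Pearson coefficient on the log2 scale of 0.709 in isolated mitochondria and 0.983 in remaining tissue (genes are not independent replicates).

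Markers of muscle fibres and of other cells also moved with the fraction. All 12 markers of the muscle fibre were present, and 9 of them were lower in isolated mitochondria (limma, adjusted p under 0.05). All 12 liver markers were present and tested, and 4 were called higher in isolated mitochondria. None of the 12 overlapped between groups, where 25.5% of all genes tested were higher without overlap. A mean under 20 in remaining tissue was found for 10 of the 12. These were tested only through isolated mitochondria, so that they had to differ. Summed over the list, normalized counts reached 315 in replicate 1 and 81 in replicate 2 of remaining tissue, beside 14768 and 2878 in the mitochondrial libraries. Alb, the serum albumin gene of hepatocytes, stood at 185 and 30 in remaining tissue and at 6986 and 1629 in isolated mitochondria. The replicates of isolated mitochondria thus differed 5.13-fold in this sum, with replicate 1 the higher in 12 of 12 genes. All 5 fibroblast markers were higher in isolated mitochondria, with sums of 1544 and 1645 in remaining tissue and 9954 and 18364 in isolated mitochondria. So were the 3 macrophage markers that could be tested of 5 (sums 81 and 99, then 524 and 642). Of these 3, Adgre1 (6, 6, 36 and 71) was tested only through isolated mitochondria. Of all genes tested, 7.32% were called higher and 9.3% lower. Among 5 endothelial markers 1 was lower. None of the 8 kidney markers was analysed here. Of 6 heart markers 3 had values, led by Myh6, a myosin heavy chain of heart muscle (196, 334, 525 and 1543), while the defining heart genes Tnni3, Myl7 and Nppa were not analysed here. The 2 heart markers tested did not overlap between groups, and neither was called. One of them, Ryr2 (1, 1, 36 and 162), was tested only through isolated mitochondria. Of the tested markers of brown fat (1), white fat (3) and erythrocytes (2), none was called. Of 2 tested brain markers 1 was called higher and 1 lower. The higher one, Rbfox3 (0, 0, 471 and 648), was also tested only through isolated mitochondria.

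Of the 10 enzymes, 1 was higher in isolated mitochondria by limma at an adjusted p under 0.05 (adjusted over the 6916 genes with a mean of at least 20), against 7.32% of all genes tested, and 0 were lower, against 9.3%. All 10 were tested, and each would have passed the minimum in either fraction alone. At an unadjusted p under 0.05, 3 were higher and 3 lower, against 15.1% higher, 21.9% lower and 37% in either direction of all genes tested. These were also the counts that 2 count models called at an adjusted p under 0.05. The background was 13.6% higher, 17.6% lower and 31.2% in either direction for edgeR on reads, and 16.9, 19.2 and 36.1% for DESeq2 on reads, beside 16.6% in either direction for limma. Without replicate 1 of isolated mitochondria limma called 24.9% of all genes higher and 40.1% lower, and without replicate 2 it called 23.8 and 46.2%. Calls in these fits are read against those shares. Scaled to all reads of a library, 6694 of the 6916 genes were lower, and 5642 when scaled to genes outside the mitochondrial genome. Each count below of settings that called an enzyme lower includes both of these scalings. The groups did not overlap in 9 of the 10 enzymes, 5 of them higher and 4 lower in isolated mitochondria, against 69.1% of all genes tested (25.5% higher and 43.7% lower). The median log2 fold change of the enzymes was 0.16, and that of all genes tested was -0.44. In bulk RNA, fewer cells or organelles of a kind and less RNA in each of them cannot be told apart.

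**Figure D1:**
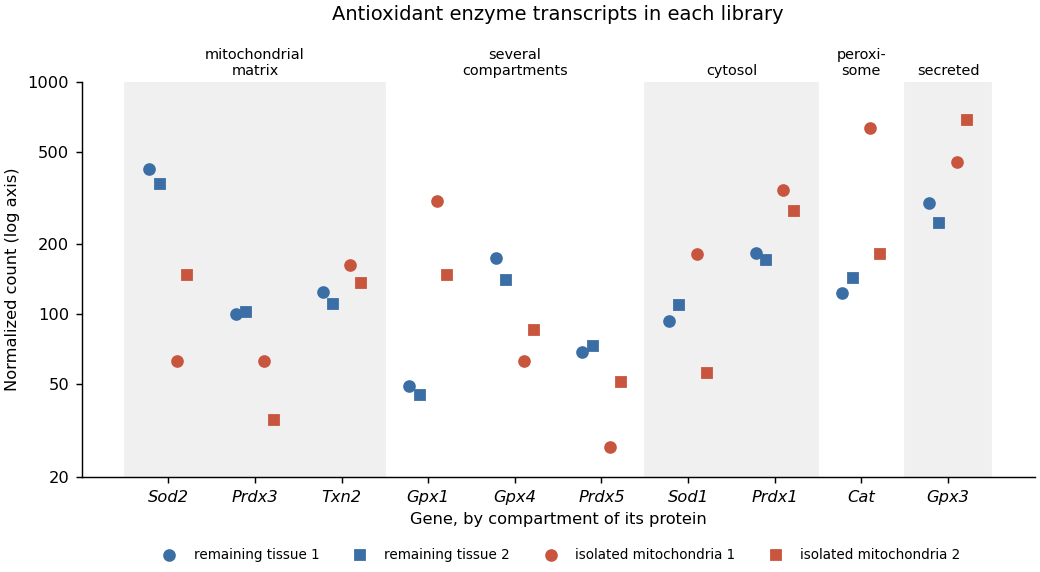
Normalized counts (log axis) of the 10 enzymes in each of the 4 libraries, ordered by the compartment of the protein. Blue marks remaining tissue and red isolated mitochondria, with circles for replicate 1 and squares for replicate 2. With the deposited scaling, Sod2 ran from 364 and 420 in remaining tissue to 63 and 147, Gpx1 from 45 and 49 to 147 and 308, and Sod1 was the enzyme whose groups overlapped.

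The superoxide dismutases were examined first. Sod2, the manganese enzyme of the matrix (chr17:13006846-13040063, plus strand), had 420 and 364 normalized counts in the replicates of remaining tissue and 63 and 147 in those of isolated mitochondria. Both libraries of isolated mitochondria lay below both of remaining tissue, on 7 and 29 reads. Sod2 averaged 392.0 ± 39.6 in remaining tissue, 3.73-fold above the 105.0 ± 59.4 of isolated mitochondria (SD, n = 2 each). The log2 fold change was -2.01 (SE 0.46), or -1.57 relative to the median gene, with an adjusted p of 0.0595 (limma), short of the threshold. Sod2 was called lower in 9 of 17 alternative settings. Among these were the fit without remaining tissue replicate 2 (adjusted p 0.0401, where 2.72% of all genes were lower) and the fits without either library of isolated mitochondria (0.0293 without replicate 1 and 0.0151 without replicate 2, where 40.1 and 46.2% were lower).

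Sod1, the copper-zinc enzyme of the cytosol (chr16:90220754-90226329, plus strand), had 94 and 110 normalized counts in remaining tissue and 181 and 56 in isolated mitochondria. One library of isolated mitochondria lay above and the other below remaining tissue. The log2 fold change was -0.01 (SE 0.62, 95% interval -1.72 to 1.70, adjusted p = 0.990, limma), and its sign was not fixed. It was -0.85 without isolated mitochondria replicate 1 and 0.83 without replicate 2. Sod1 stood 3.23-fold higher in replicate 1 of isolated mitochondria, the library with the higher liver markers, and the part of those cells in the value was not tested. A processed pseudogene, Gm8566, shared 465 nt with Sod1 at 97.8% identity and held 2, 2, 18 and 10 normalized counts in the same order of libraries. Reads that match both were left out by the authors, so the level of Sod1 is uncertain.

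The peroxiredoxins and their electron donor followed. Prdx3, the peroxiredoxin of the matrix (chr19:60864051-60874556, minus strand), had 100 and 102 normalized counts in remaining tissue and 63 and 35 in isolated mitochondria. Its replicates of remaining tissue were the closest of all 10 enzymes on this scale, and both libraries of isolated mitochondria lay below them, with 7 reads in each. The difference was -1.09 on the log2 scale (SE 0.37), and limma gave an adjusted p of 0.119. Prdx3 was called lower in 6 of 17 settings, including those without isolated mitochondria replicate 1 (adjusted p 0.0134) and without replicate 2 (0.0156), in which 40.1 and 46.2% of all genes were lower.

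Txn2, the matrix thioredoxin that keeps Prdx3 reduced (chr15:77915047-77929006, minus strand), had 125 and 111 normalized counts in remaining tissue and 163 and 137 in isolated mitochondria. Unlike the other matrix enzymes, its values in isolated mitochondria lay above those of remaining tissue. The gap was narrow, with a log2 fold change of 0.34 (SE 0.22, 95% interval -0.27 to 0.95, adjusted p = 0.328, limma). The difference between Txn2 and the other matrix enzymes was not tested.

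Prdx1, the abundant cytosolic peroxiredoxin (chr4:116685544-116700822, plus strand), had 184 and 171 normalized counts in remaining tissue and 344 and 278 in isolated mitochondria. Both libraries of isolated mitochondria were higher, by 0.80 on the log2 scale (SE 0.21, adjusted p = 0.0772, limma). It was called higher in 6 of 17 settings, among them those that left out isolated mitochondria replicate 1 (adjusted p 0.0357) or replicate 2 (0.0218), in which 24.9 and 23.8% of all genes were higher. Prdx1 shares 597 nt at 98.3% identity with a processed pseudogene, Gm21399, which held 3, 5, 9 and 0 normalized counts. Reads that match both were left out. Prdx5, a peroxiredoxin found in mitochondria, peroxisomes and cytosol (chr19:6906697-6910106, minus strand), had 69 and 73 normalized counts in remaining tissue and 27 and 51 in isolated mitochondria, the latter from 3 and 10 reads. Its difference was -0.92 on the log2 scale (SE 0.40), with an adjusted p of 0.181 (limma). Prdx5 was called lower in 4 of 17 settings. These were the scalings to all reads and to genes outside the mitochondrial genome, in which most genes were lower, and 2 fits without 1 library. Those fits left out isolated mitochondria replicate 1 (log2 fold change -0.47) or replicate 2 (-1.36). Neither edgeR (adjusted p = 0.140) nor DESeq2 (0.191) called it. Exons of Prdx5 overlap those of Trmt112 on the opposite strand (360 nt), so its value is uncertain unless the counting used strand, which is not given in the sources used here.

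The glutathione peroxidases held the enzyme that passed the test. Gpx1, which reduces hydrogen peroxide in cytosol and mitochondria (chr9:108338903-108340343, plus strand), had 49 and 45 normalized counts in remaining tissue and 308 and 147 in isolated mitochondria. Both libraries of isolated mitochondria were above both of remaining tissue, on 34 and 29 reads. Mean Gpx1 was 47.0 ± 2.83 (SD, n = 2) in remaining tissue and 4.84-fold higher, 227.5 ± 114 (SD, n = 2), in isolated mitochondria. The log2 fold change was 2.16 (SE 0.43), or 2.60 relative to the median gene, with an adjusted p of 0.0447 (limma). The call held in 10 of 17 settings. By limma it was lost with upper-quartile scaling (adjusted p = 0.0506), a mean of at least 5 (0.0776), no filter (0.0722) and no trend (0.0705). It was also lost without remaining tissue replicate 2 (log2 fold change 2.10). Scaled to all reads of a library, Gpx1 was called lower (-4.65). Scaled to genes outside the mitochondrial genome, it was not called (-0.82). Gpx1 was 2.10-fold higher in replicate 1 of isolated mitochondria than in replicate 2, the direction of the liver markers, and their part in the result was not tested. Without replicate 1 the log2 fold change was 1.63 and the adjusted p was 0.0165, in a fit that called 24.9% of all genes higher.

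Gpx4, which reduces lipid peroxides within membranes (chr10:80047166-80056439, plus strand), had 174 and 140 normalized counts in remaining tissue and 63 and 86 in isolated mitochondria. Both libraries of isolated mitochondria were lower, by -1.07 on the log2 scale (SE 0.28), and the adjusted p was 0.0749 (limma). It was called lower in 5 of 17 settings, among them that without isolated mitochondria replicate 2 (0.0489, where 46.2% of all genes were lower). Gpx4 shares 762 nt at 99.7% identity with Gpx4-ps2, to which 53, 43, 27 and 35 normalized counts were assigned, and reads that match both were left out by the authors, so its level is uncertain.

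Gpx3, the secreted glutathione peroxidase of plasma (chr11:54902453-54910377, plus strand), had 301 and 246 normalized counts in remaining tissue and 452 and 683 in isolated mitochondria. The values of isolated mitochondria lay above those of remaining tissue in both libraries, here with replicate 2 the higher. By limma the log2 fold change came to 1.03 (SE 0.28) and the adjusted p to 0.0837. Gpx3 was called higher in 7 of 17 settings, and among the fits without 1 library only in that without isolated mitochondria replicate 1 (0.0458, where 24.9% of all genes were higher). Fibroblast markers were also higher in isolated mitochondria and higher in replicate 2 in 4 of 5 genes, and their part in the value was not tested.

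Cat, the peroxisomal catalase (chr2:103453849-103485160, minus strand), had 124 and 144 normalized counts in remaining tissue and 633 and 182 in isolated mitochondria. Replicate 1 of isolated mitochondria stood 3.48-fold above replicate 2, which was the largest ratio in that direction among the 10 enzymes. The log2 fold change by limma came to 1.34, with an SE of 0.65 and an adjusted p of 0.218. Without isolated mitochondria replicate 1 it was 0.44 (adjusted p = 0.132), and without replicate 2 it was 2.24 (0.0177, where 23.8% of all genes were higher). Catalase is abundant in liver, and the part of the liver markers in this value was not tested.

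**Figure D2:**
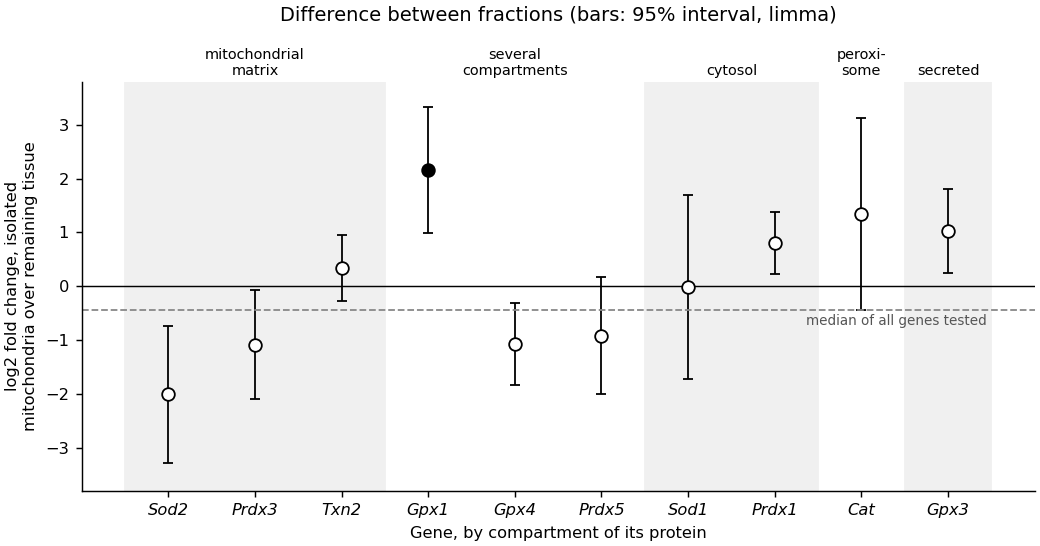
Log2 fold change of each enzyme, isolated mitochondria over remaining tissue, on log2(normalized count + 1) with the deposited scaling. Points are limma estimates, bars their 95% intervals, and the dashed line is the median of all 6916 genes tested (-0.44). Gpx1, the filled point, was the enzyme with an adjusted p under 0.05, and the intervals of Sod1, Cat, Txn2 and Prdx5 include 0.

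By compartment, the matrix enzymes Sod2, Prdx3 and Txn2 had a median log2 fold change of -1.09, with 0 of 3 called by limma and 2 lower at an unadjusted p under 0.05 (21.9% of all genes), as well as by edgeR (17.6%) and by DESeq2 (19.2%). Their summed normalized counts were 645 and 577 in remaining tissue and 289 and 319 in isolated mitochondria. The cytosolic pair, Sod1 and Prdx1, summed to 278 and 281 in remaining tissue and to 525 and 334 in isolated mitochondria, with 0 of 2 called by limma and 1 higher at an unadjusted p under 0.05 (15.1% of all genes), as well as by edgeR (13.6%) and by DESeq2 (16.9%). The enzymes of several compartments, Gpx1, Gpx4 and Prdx5, summed to 292 and 258, then 398 and 284, with Gpx1 called higher and the values of the other pair lower. No test of compartments against each other was made. With the values scaled to all reads of a library, 10 of 10 enzymes were called lower in isolated mitochondria. The median log2 fold change of all genes was then -6.90, so that a direction depends on the scaling. Directions are given here as the sign with the deposited scaling, where the median gene stood at -0.44. Relative to that gene, Sod2 stood at -1.57, Prdx3 at -0.65, Gpx4 at -0.63 and Prdx5 at -0.47. The other enzymes lay above the median gene. Of the nuclear genes tested, 10.96% had a lower log2 fold change than Sod2, 30.05% than Prdx3, 30.44% than Gpx4 and 35.09% than Prdx5.

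Ratios within a library do not depend on any scaling between libraries, and were used to compare the mitochondrial with the cytosolic form of the same kind of enzyme. They are ratios of normalized counts and not per length, so that only their difference between fractions is read. Prdx3 over Prdx1 was 0.543 and 0.596 in remaining tissue and 0.183 and 0.126 in isolated mitochondria. Both libraries of isolated mitochondria lay below both of remaining tissue, with a mean difference of -1.89 on the log2 scale, where the SDs between replicates were 0.094 and 0.37 (n = 2 each). The difference ran from -2.15 to -1.62 when any 1 library was left out. Sod2 over Sod1 was 4.47 and 3.31 in remaining tissue and 0.348 and 2.63 in isolated mitochondria. The groups did not overlap and the ratio was 3.99-fold lower on average in isolated mitochondria, but the SD there was 2.04 on the log2 scale, and the log2 difference was -0.56 without replicate 1 of isolated mitochondria and -3.44 without replicate 2. Txn2 over Txn1 was 7.35 and 6.17 in remaining tissue and 6.04 and 2.69 in isolated mitochondria. Its mean difference of -0.70 did not exceed the SD in isolated mitochondria, 0.81, and it rests on 3 and 10 reads of Txn1. All 3 ratios were lower in both libraries of isolated mitochondria, but how many other gene pairs were so was not computed. Of single genes tested, 43.7% were lower without overlap. For Txn2 over Txn1 the groups were barely apart, at 2.56 in remaining tissue replicate 2 and 2.55 in isolated mitochondria replicate 1 on the log2 scale. The smallest two-sided p that an exact permutation test allows for such groups is 0.333, and none was run.

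**Figure D3:**
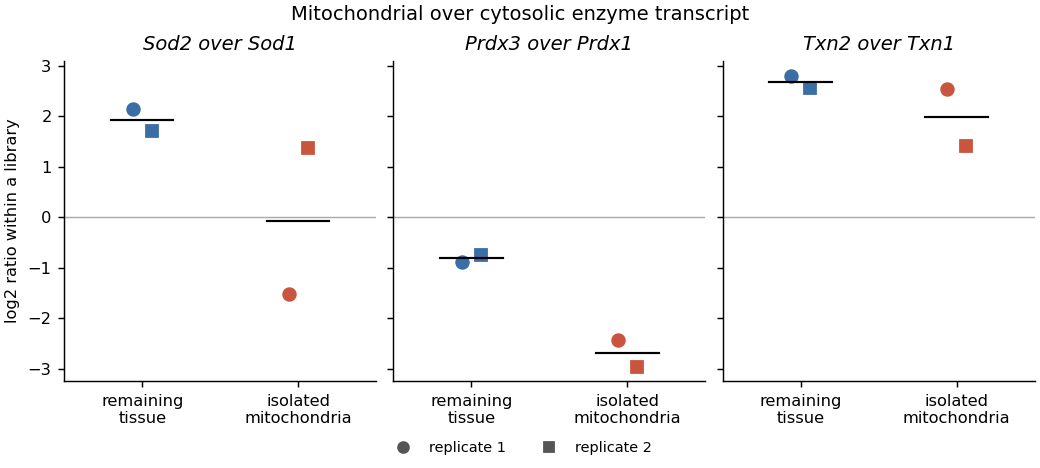
Log2 ratio of the mitochondrial to the cytosolic form within each library, for Sod2 over Sod1, Prdx3 over Prdx1 and Txn2 over Txn1 (normalized count + 1 in each term). Circles are replicate 1, squares replicate 2 and lines the mean of 2 libraries. Prdx3 over Prdx1 showed the smallest spread beside its difference of -1.89, and the replicates of isolated mitochondria lay on either side of 0 for Sod2 over Sod1.

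Levels of different enzymes were compared per kilobase of length, once over all annotated exons of the gene and once over the principal transcript, because the order depends on this choice. The second length was chosen after seeing the data. Gpx3 was the highest in remaining tissue either way, at 150.9 ± 21.5 normalized counts per kb of exon and 172 ± 24.4 per kb of transcript (SD, n = 2). Sod1 was the lowest per kb of all exons, 25.7 ± 2.85 over 3970 nt, but the third per kb of its transcript of 641 nt, 159 ± 17.7, where it overlapped Gpx4 at 164 ± 25.1, which in turn overlapped Gpx3. Per kb of exon, Gpx4 (91.1 ± 13.9), Prdx3 (68.3 ± 0.957), Prdx1 (58.3 ± 3.02), Cat (51.3 ± 5.41) and Sod2 (39.2 ± 3.96) followed Gpx3 without overlap between neighbours, and Prdx5, Gpx1 and Txn2 lay between 28.0 and 33.2, with Txn2 overlapping Sod1. Gpx1 was the eighth on that scale and the last per kb of transcript, at 43.8 ± 2.64. In isolated mitochondria Gpx3 was again the highest by both lengths, at 313.0 ± 90.1 per kb of exon, and Gpx1 came second by both, at 158 ± 79.0 per kb of exon and 212 ± 106 per kb of transcript. Sod2 was the lowest by both, at 10.5 ± 5.93 and 17.9 ± 10.1. Only 2 steps in each of these orders were free of overlap, among them that from Gpx3 to Gpx1 per kb of exon but not per kb of transcript, so most ranks in isolated mitochondria are not separated by these libraries.

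The make-up of the group was described by shares. These were not tested, and several differed widely between the replicates of isolated mitochondria. Sod2 supplied 25.6 and 24.2% of the summed normalized counts of the 10 enzymes in remaining tissue and 2.74 and 8.16% in isolated mitochondria. Gpx1 supplied 2.99% in each library of remaining tissue and 13.4 and 8.16% in isolated mitochondria. Gpx3 supplied 18.4 and 16.3%, then 19.7 and 37.9%, and Cat 7.56 and 9.56%, then 27.6 and 10.1%. As a share of reads on nuclear genes without copies of mitochondrial genes, the 10 enzymes together held an estimated 0.0964 and 0.0887% in remaining tissue, with 95% Wilson intervals of 0.0947 to 0.0982 and 0.0870 to 0.0904. They held 0.252 and 0.197% in isolated mitochondria, with intervals of 0.223 to 0.285 and 0.177 to 0.218. The shares in isolated mitochondria were above those in remaining tissue in both libraries, with means of 0.224% ± 0.0390 and 0.0926% ± 0.00547 (SD, n = 2 each). These intervals account for counting error alone, because several reads can stem from 1 molecule. The summed normalized counts of the 12 muscle fibre markers, which weigh on this denominator, were 303989 and 314552 in remaining tissue and 61108 and 59090 in isolated mitochondria.

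**Figure D4:**
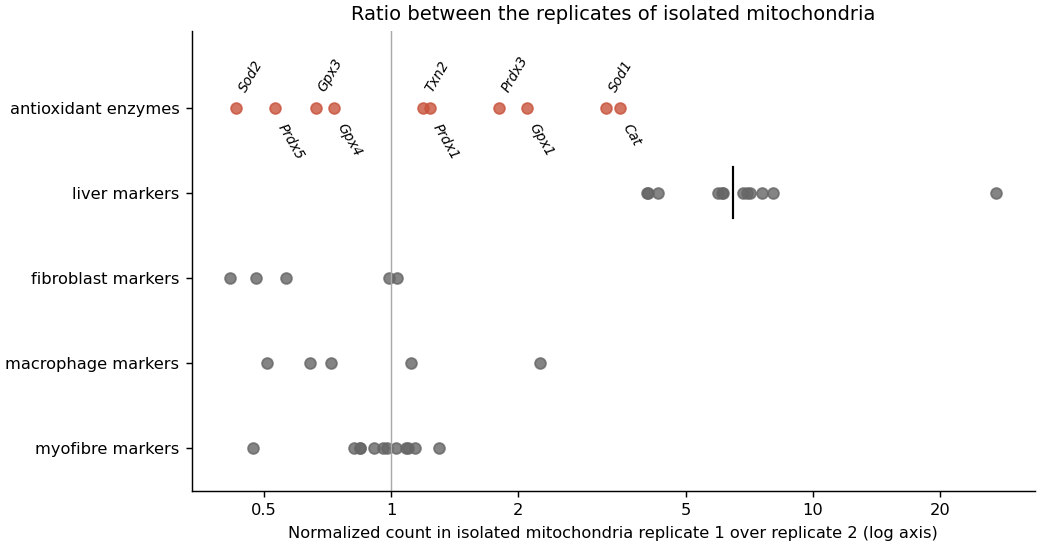
Normalized count in isolated mitochondria replicate 1 over replicate 2 (log axis), for the 10 enzymes and for 4 lists of marker genes. Each point is a gene, and the bar is the median of the liver markers (6.46). The liver markers ran from 4.03 to 27.2, Cat (3.48) and Sod1 (3.23) came nearest to them, and Sod2 (0.43) lay at the other end.

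The nuclear protein-coding genes with the values most like those of Sod2 and Sod1 were found by Euclidean distance over the 4 log2 values. For Sod2 they were Rab10 (distance 0.192; 388, 360, 63 and 132 normalized counts), Got1 (0.288) and Ube3b (0.390). For Sod1 they were Cyb5b (0.219; 105, 109, 172 and 51), Ndufb7 (0.379) and Abca1 (0.382). The distances describe 4 libraries and were not tested.

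Genes that work with these enzymes were examined as 6 lists of 63 genes in all. Of these, 43 could be tested, 5 were higher, 3 lower and 35 did not pass (limma, adjusted p under 0.05, against the same 7.32 and 9.3% of all genes). Of the 43, 8 passed the minimum only through isolated mitochondria and 1 only through remaining tissue. The median log2 fold change was 0.41. Groups did not overlap in 20 genes that were higher and 12 that were lower, against 25.5 and 43.7% of all genes.

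Among the other peroxidases, dismutase and copper chaperone, 1 of 5 tested genes was higher and 0 were lower (edgeR and DESeq2 each called 2 higher and 0 lower). It was Prdx4, the peroxiredoxin of the endoplasmic reticulum, which passed the minimum only through isolated mitochondria, so that it had to differ, and had 3 normalized counts in each library of remaining tissue and 54 and 51 in isolated mitochondria (log2 fold change 3.74, SE 0.70, adjusted p = 0.0416, limma). The call was lost without remaining tissue replicate 1 (0.190) or replicate 2 (0.194). Sod3, the extracellular dismutase, stood at 23, 31, 81 and 192 (log2 fold change 2.18, adjusted p = 0.0611). Prdx6 stood at 54, 56, 81 and 86 (0.59, adjusted p = 0.154) and the cytosolic Prdx2 at 84, 90, 63 and 96, with overlap (-0.16, adjusted p = 0.727). Ccs, the chaperone that loads copper onto Sod1, had 9 and 8 normalized counts in remaining tissue and 81 and 5 in isolated mitochondria, the last from 1 read, and its groups overlapped (adjusted p = 0.574).

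In the thioredoxin and glutaredoxin system, 1 of 9 tested genes was higher and 0 were lower (edgeR called 1 higher, DESeq2 2, and each 0 lower). Glrx5, the mitochondrial glutaredoxin of iron-sulphur cluster assembly, had 41 in both libraries of remaining tissue and 90 and 96 in isolated mitochondria (1.16, SE 0.24, adjusted p = 0.0476, limma). This call was lost without either library of remaining tissue (0.625 and 0.619). Txn1 had 17 and 18, then 27 and 51 (1.05, adjusted p = 0.195). Txnrd1, the cytosolic thioredoxin reductase, had 108 and 116, then 81 and 51 (-0.79, adjusted p = 0.160), and its mitochondrial counterpart Txnrd2 had 12 and 16, then 27 and 5, and was too low to be tested.

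Of 10 tested genes of glutathione supply and transferases, 1 was higher and 1 lower (3 and 1 by edgeR, 5 and 1 by DESeq2). Gstm1, a cytosolic glutathione transferase, had 158 and 135 in remaining tissue and 371 and 410 in isolated mitochondria (1.41, SE 0.20, adjusted p = 0.0250, limma). Mgst3, a membrane-bound transferase, had 119 and 103, then 27 and 30 (-1.92, SE 0.26, adjusted p = 0.0230). Gsr, which regenerates glutathione, overlapped between groups (34, 29, 45 and 25). Of 5 tested genes that supply NADPH, the source of electrons for both systems, 1 was higher and 2 were lower (1 and 2 by edgeR, 2 and 2 by DESeq2). Idh1, the isocitrate dehydrogenase of cytosol and peroxisomes, had 28 in both libraries of remaining tissue and 118 and 111 in isolated mitochondria (1.99, SE 0.25, adjusted p = 0.0205). Idh2, its counterpart in the matrix, had 302 and 252, then 109 and 116 (-1.29, SE 0.21, adjusted p = 0.0320), and the cytosolic malic enzyme Me1 269 and 316, then 136 and 101 (-1.31, SE 0.25, adjusted p = 0.0426). Each of these 5 calls was lost when either library of remaining tissue was left out (adjusted p 0.135 to 0.464), with the same direction.

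Of 8 tested genes of the Nrf2 pathway and stress response, 1 was higher and 0 were lower (edgeR and DESeq2 each called 2 higher and 2 lower). Ftl1, the ferritin light chain that stores iron, had 59 and 75 in remaining tissue and 425 and 612 in isolated mitochondria (2.92, SE 0.29, adjusted p = 0.0144, limma), and this call held without any 1 library. The values of Nfe2l2, which encodes Nrf2 itself, were 40, 40, 54 and 66 (0.57, adjusted p = 0.214), and those of its repressor Keap1 were 94, 86, 54 and 35 (-1.03, adjusted p = 0.102). Of 6 tested selenoproteins without a peroxidase role, 0 were called either way, with 1 at an unadjusted p under 0.05, 1 higher by edgeR and 2 higher by DESeq2.

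**Figure D5:**
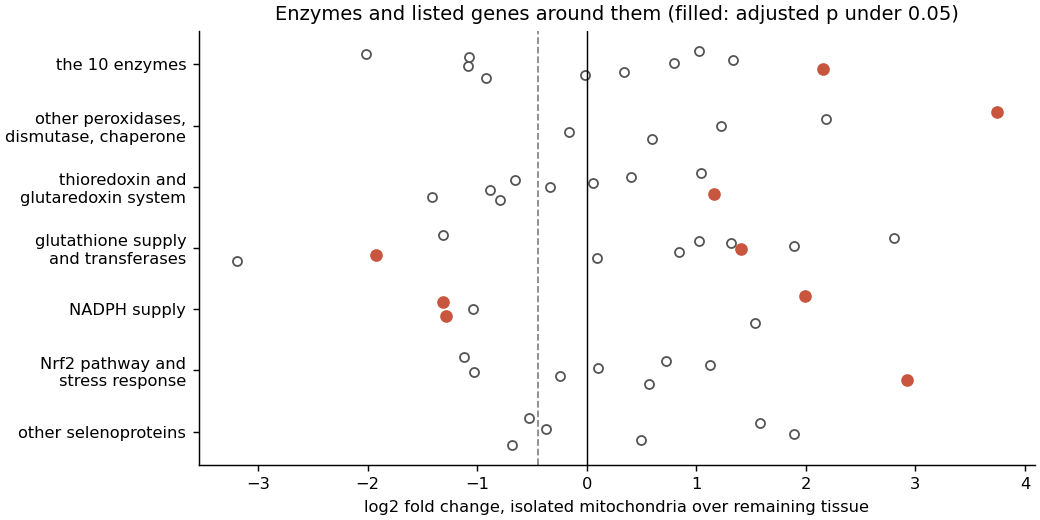
Log2 fold change, isolated mitochondria over remaining tissue with the deposited scaling, of the 10 enzymes and of the tested genes in 6 lists around them. Each point is a gene, filled points passed an adjusted p of 0.05 (limma), and the dashed line is the median of all genes tested (-0.44). Filled points lie on both sides of 0 for NADPH supply and for glutathione supply and transferases, and Prdx4 is the one farthest to the right.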

How the data were processed

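The 10 enzymes, the lists of related genes and the markers were chosen with earlier results of these data known. Skeletal muscle RNA was measured in 4 libraries (10 ng of total RNA, SMARTer Stranded Total RNA Pico kit, single-end reads). Per the labels and methods, the authors used Trimmomatic 0.39 for trimming, STAR for alignment to mm10 (GRCm38) and featureCounts for reads per gene, left out reads of several genes or places, and normalized with DESeq2; the submitters' processing notes give versions 2.7.10a, 2.0.2 and 1.30.1, and the methods other versions. The deposited values are a signal: counts divided by a size factor and rounded. In isolated mitochondria 100% of values under 2000 were whole multiples (tolerance 0.5) of 9.05 and 5.06 normalized counts per read, so that reads were recovered (42750358 and 35305303 in total). In remaining tissue reads were estimated (7.05 per normalized count, 15702412 and 15300272 in total).

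Genes averaging at least 20 normalized counts were tested on log2(value + 1), which understates changes of low genes, with limma 3.58.1 in R 4.3.3 (eBayes with trend, two-sided, Benjamini-Hochberg, threshold 0.05). Alternatives included edgeR 4.0.16 and DESeq2 1.42.0 on reads, 4 other scalings, another gene length for levels, other pseudocounts and filters, a replicate block and leaving out each library. The fit was also run on simulated data with set spreads between replicates and few changed genes, which does not show how it performs on these libraries. Named genes were the 10 enzymes, 10 partners, called list genes and the 3 nearest genes of Sod1 and Sod2. Gene models were GENCODE M21, in which 16457 of 16472 identifiers were found. Similar transcripts (at least 50 nt, near-identical from 95% identity) and 17 nuclear copies of mitochondrial genes were found with BLAST 2.17.0. The chi-square between replicates per degree of freedom was 88.2 in isolated mitochondria and 8.42 in remaining tissue, above counting noise, which does not show that they came from separate animals; libraries entered as samples by their labels. The coding sequence of Sod1 is not reported here.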

Additional observations from a re-analysis of the deposited data

How the results depend on the processing

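The counts of calls depended on the settings; as reported, 506 genes were higher and 643 lower. Leaving out 1 library gave 296 to 1724 genes higher and 176 to 3198 lower in isolated mitochondria, 0 to 3 of the 10 enzymes higher and 0 to 4 lower, and a median of the enzymes of -0.13 to 0.60; in these fits the lone library of a group is assumed to vary like the other group. Genes higher and lower were 38 and 6694 with every read of a library as the scale, 114 and 5642 when scaled to genes outside the mitochondrial genome, 1107 and 183 when scaled to nuclear genes without copies (added after seeing the data), 940 and 1216 by edgeR on reads, and 1170 and 1327 by DESeq2. TMM gave 1106 higher and a mean of at least 5 gave 283 higher and 399 lower, while 3026 were lower with no filter and 374 without a trend. In the same order of the 3 scalings, 0, 0 and 4 enzymes were higher and 10, 9 and 0 lower, with medians of -6.61, -2.81 and 1.05. The median of all genes was then -6.90, -3.34 and 0.43. edgeR and DESeq2 each called 3 enzymes higher and 3 lower, and TMM 3 and 1. A mean of at least 5, no filter and no trend each left 0 enzymes higher. The median of the enzymes was 0.39 with upper-quartile scaling and 0.41 with TMM. The causes of these shifts were not tested beyond the scaling itself. The ratios of the 3 enzyme pairs kept their direction with both other pseudocounts. Without any 1 library they kept it too, but had to, because the groups did not overlap in any of these pairs.

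The share of higher calls among all calls, 44.0%, was 0.564% and 1.98% with the first 2 of these scalings, 55.5% with upper-quartile scaling, 85.8% with nuclear genes without copies and 55.9% with TMM. It was 18.0% with no filter. Replicate numbers of the 2 groups are not said to mark the same animals, and the deviations of same-numbered libraries correlated at 0.141 over 6916 genes and at 0.300 over the 1623 nuclear genes with a mean of at least 100. With the replicate block, 630 genes were higher and 1144 lower, 3 enzymes were higher (Cat with an adjusted p of 0.0146, Gpx1 0.000403, Gpx3 0.0313) and 1 lower (Sod2, 0.000221), and the calls of Prdx4 (0.0563) and Glrx5 (0.0958) were lost.

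Signs changed for Sod1 (0.22 with upper-quartile scaling, 0.87 with nuclear genes without copies, 0.028 by edgeR, 0.26 with TMM, 0.16 by DESeq2, and -0.85 to 0.83 without 1 library), Prdx2 (0.069, 0.73 and 0.18 with upper quartile, nuclear genes and TMM, and -0.46 to 0.14 without 1 library) and Txnrd1 (0.094 with nuclear genes). Without 1 library, Ccs ran from -0.66 to 3.11 and Gsr from -0.32 to 0.51. With the scales of every read and of genes outside the mitochondrial genome, log2 fold changes were -5.51 and -1.65 for Cat, -4.65 and -0.82 for Gpx1, -5.84 and -1.97 for Gpx3, -6.05 and -2.19 for Prdx1, -6.45 and -2.64 for Txn2, -5.39 and -1.82 for Txn1, -4.88 and -1.53 for Ccs, -6.11 and -2.36 for Prdx6, -4.52 and -0.76 for Sod3, -6.40 and -2.81 for Gsr, -6.06 and -2.37 for Nfe2l2, -3.93 and -0.064 for Ftl1, -4.74 and -0.95 for Idh1, -5.44 and -1.58 for Gstm1, and -5.55 and -1.79 for Glrx5. Prdx4 reached -2.53 with the first of these. Depth limits all of this: 7 reads of Sod2 or 3 of Prdx5 in 1 library cannot resolve small differences.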
